A study of Mus musculus with 6 samples.

Results

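The adherens junction cadherins and catenins are described here in bEND.3 cells after knockdown of the long non-coding RNA Gm39822. Members were taken by gene symbol from the deposited counts, and all 7 named genes, Cdh5, Cdh2, Ctnnb1, Ctnna1, Ctnnd1, Jup and Vcl, were found among 49315 genes. bEND.3 is a mouse brain endothelial line immortalized with polyoma middle T antigen, so every sample is the same transformed line and not primary endothelium. Cells received by lipofection either an antisense LNA GapmeR against Gm39822 (4 samples, genotype Gm39822 knockdown) or a negative control GapmeR (2 samples, genotype control), each at 100 nM. A GapmeR is a short antisense oligonucleotide whose DNA core directs RNase H to its target RNA. Ribosomal RNA was removed from total RNA before paired-end sequencing. The labels do not say whether the samples came from separate cultures, so p-values measure the spread between these samples, which may be technical.

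In an adherens junction, a cadherin of one cell binds a cadherin of its neighbour, and its tail holds catenins inside the cell. VE-cadherin (Cdh5) is the cadherin of endothelial junctions, and N-cadherin (Cdh2) is another classical cadherin of endothelium, known for contacts with pericytes. Beta-catenin (Ctnnb1) or plakoglobin (Jup) binds the end of the tail, and alpha-catenin (Ctnna1) joins that complex to actin. Vinculin (Vcl) binds alpha-catenin under tension, while p120-catenin (Ctnnd1) binds nearer the membrane and keeps the cadherin from being taken up and degraded. In brain vessels these junctions support the tight junctions of the blood-brain barrier.

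Of the 7 members, 4 were matched in the RefSeq promoter table, and their promoters are shown to give the sequence upstream of genes measured here. Of these 4, Ctnnd1, Jup and Vcl fell after knockdown and Ctnnb1 did not pass the test. Each is 200 bases, from 250 to 51 bases before a RefSeq start on GRCm38.p6, 5′ to 3′ on the strand of the gene. For Jup and Vcl that start lies inside the gene span given below, so their windows lie closer to the edge of that span. Capitals mark matches, on either strand, to a GC box (GGGCGG), an ETS core (CCGGAA) or a TCF/LEF core (CTTTGA). Cdh5, Cdh2 and Ctnna1 are not shown.
Ctnnb1, chr9:120933150-120933349, forward strand: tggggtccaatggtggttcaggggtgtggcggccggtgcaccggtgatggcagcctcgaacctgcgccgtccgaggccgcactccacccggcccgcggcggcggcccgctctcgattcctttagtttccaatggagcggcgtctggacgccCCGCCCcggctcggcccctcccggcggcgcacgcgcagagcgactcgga
Jup, chr11:100397841-100398040, reverse strand: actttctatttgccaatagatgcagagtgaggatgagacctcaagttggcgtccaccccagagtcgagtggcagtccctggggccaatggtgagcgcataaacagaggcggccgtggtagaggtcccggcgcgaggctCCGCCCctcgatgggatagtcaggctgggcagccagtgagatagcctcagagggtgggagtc
Vcl, chr14:20929148-20929347, forward strand: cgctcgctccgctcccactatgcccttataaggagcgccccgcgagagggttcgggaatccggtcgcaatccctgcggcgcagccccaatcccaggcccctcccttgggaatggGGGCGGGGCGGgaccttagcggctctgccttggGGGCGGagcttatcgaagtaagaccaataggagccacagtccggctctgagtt
Ctnnd1, chr2:84659028-84659227, reverse strand: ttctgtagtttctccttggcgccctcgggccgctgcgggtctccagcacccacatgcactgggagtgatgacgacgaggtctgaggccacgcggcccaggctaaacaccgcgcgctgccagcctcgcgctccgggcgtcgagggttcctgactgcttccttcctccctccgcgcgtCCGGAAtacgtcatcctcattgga

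The GC box was found once in Ctnnb1, once in Jup and 3 times in Vcl, where 2 of the matches share a base, and 24.5% of 27025 promoters of this length held it. The ETS core was found in Ctnnd1 alone among the 4, against 8.03% of all promoters. The TCF/LEF core was in none of them, against 12.0% of all promoters. These matches describe letters in the window and were not tested against the changes in RNA.

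Total counts were between 29261988 and 37117934 per sample. The smallest amount taken as detectable, 3 counts, was between 0.0808 and 0.103 CPM, counts scaled to a fixed library total. This limit used the raw totals, without the TMM factors that scale the other CPM values. The targeted RNA, Gm39822, was counted 2, 1, 4 and 2 times after knockdown (GapmeR samples 1 to 4) and 61 and 56 times in negative controls 1 and 2. Of 14 endothelial marker genes all were measured, and their summed level was 8788 to 9870 CPM in the GapmeR samples and 9908 to 10286 CPM in the controls. Lists of 8 marker genes of other cells gave 202 to 375 CPM after knockdown and 167 to 172 CPM in the controls for macrophage markers, and 6.76 to 10.3 CPM and 1.38 to 1.97 CPM for mural markers. Epithelial markers summed to 1.15 to 1.64 CPM and 0.657 to 1.00 CPM, and Epcam had at most 1 count in any sample. By edgeR 1 macrophage and 1 mural marker rose and none fell, and of the epithelial markers 2 rose and 1 fell. The macrophage marker that rose was Cd68, by 0.43 on the log2 scale. The median log2 fold change over the 8 macrophage markers was larger, at 1.07, though the others did not pass. The mural marker that rose was Myh11, at 5.37 to 5.93 CPM after knockdown and 0.251 to 0.365 CPM in the controls. Myh11 made up most of the mural sum after knockdown, and no other mural marker was called. No marker of these lists was at 0 in every sample, and their part in the results was not tested. The macrophage values were highest in GapmeR samples 3 and 4, at 341 and 375 CPM, and the lowest endothelial sum was that of GapmeR 2.

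Of the 7 members, 5 fell after Gm39822 knockdown (Cdh5, Cdh2, Ctnnd1, Jup and Vcl), none rose, and Ctnnb1 and Ctnna1 did not pass the test. The test was edgeR's quasi-likelihood test on 18234 genes scaled by TMM, with an adjusted p-value under 0.05 taken as a call. Over all genes tested, 45.3% were called, 25.4% higher and 20.0% lower, so a call in these data is common. DESeq2 called the same 5 members lower and none higher, against 41.0% of all genes called, 23.0% higher and 18.0% lower. The median log2 fold change was -0.36 over the members and 0.03 over all genes tested. Scaling by library size only raised that median to 0.17. It left 3 members lower, Cdh5, Cdh2 and Ctnnd1, against 45.2% of all genes called, 11.7% lower and 33.5% higher. Leaving out negative control 1 left the same 3 members lower. By the exact 2-sided permutation test on CPM of single members, each of the 5 that fell had p = 0.0667, the smallest this design allows, Ctnna1 had p = 0.133 and Ctnnb1 had p = 1.0. Bulk RNA cannot tell fewer cells making a transcript from less of it per cell.

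**Figure D1:**
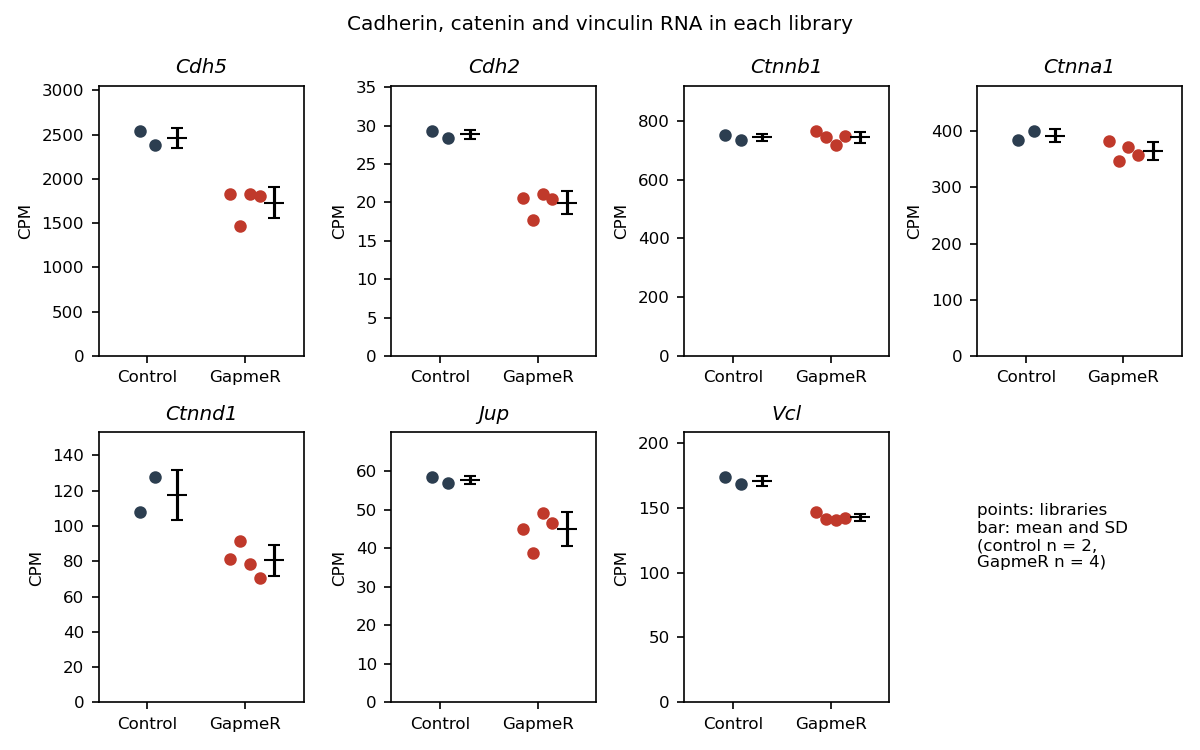
Normalized expression in CPM (TMM-scaled, axes from 0) of the 7 members in each of the 2 negative control and 4 GapmeR samples, with the group mean and SD beside the points. The GapmeR points lie below both controls in 6 of the 7 panels, and in that of Ctnnb1 the groups overlap. The 6 include Ctnna1, which was not called. Of all genes tested, 27.3% had every GapmeR sample below both controls, and 59.2% had no overlap in either direction.

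Cdh5 (ENSMUSG00000031871, chr8:104101613-104144504 in mm10, forward strand) was by far the more abundant of the 2 cadherins among the members. Its normalized expression was 1828, 1472, 1830 and 1802 CPM in GapmeR samples 1 to 4 and 2542 and 2383 CPM in the negative controls. All GapmeR samples lay below both controls, as did those of 27.3% of all genes tested (59.2% had no overlap in either direction), and GapmeR 2 was the lowest. The mean of 1733 ± 175 CPM (SD, n = 4) compared with 2463 ± 112 CPM in the controls (SD, n = 2), which is a log2 fold change of -0.51 (standard error, SE, 0.09, edgeR adjusted p = 0.000348). The mean fell by 29.6%. Over all alternatives the log2 fold change of Cdh5 stayed between -0.56 and -0.36, and it was -0.43 without GapmeR 2 and -0.44 without negative control 1. With GapmeR 1 and 2 alone, a subset chosen after the data were seen, it was -0.56. This subset had fewer macrophage marker counts but also holds GapmeR 2, and the part of either in the value was not tested.

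Cdh2 (ENSMUSG00000024304, chr18:16588877-16809246, reverse strand) was a minor cadherin beside Cdh5 and had a change of similar size. It measured 20.5, 17.8, 21.1 and 20.5 CPM in GapmeR samples 1 to 4 and 29.3 and 28.5 CPM in the controls. The groups did not overlap, and GapmeR 2 was again the lowest. The GapmeR mean of 20.0 ± 1.49 CPM (SD, n = 4) compared with 28.9 ± 0.610 CPM in the controls (SD, n = 2). The log2 fold change was -0.53 (SE 0.09, edgeR adjusted p = 0.000129). Within a library, Cdh2 had 0.0116 ± 0.000373 counts per Cdh5 count (SD, n = 4) after knockdown and 0.0117 ± 0.000286 (SD, n = 2) in the controls. This ratio overlapped between the groups (exact permutation p = 0.667). Per kilobase of transcript, Cdh2 made up 0.935% of Cdh5 and Cdh2 together after knockdown and 0.950% in the controls.

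The catenins that bind the end of the cadherin tail differed. Ctnnb1 (ENSMUSG00000006932, chr9:120933400-120960507, forward strand), which also carries Wnt signals to the nucleus, had 766, 744, 719 and 748 CPM in GapmeR samples 1 to 4 and 752 and 736 CPM in the controls. The groups overlapped, and both means were 744 CPM. The 95% interval of its log2 fold change ran from -0.15 to 0.15, so a change as large as that of Cdh5 lies outside it. With library size only it was 0.15. Jup (ENSMUSG00000001552, chr11:100368856-100397839, reverse strand), its close relative, had 45.0, 38.8, 49.2 and 46.6 CPM after knockdown and 58.3 and 56.8 CPM in the controls, without overlap. Its log2 fold change was -0.36 (SE 0.09, edgeR adjusted p = 0.00307). The call on Jup was lost with library size only (edgeR adjusted p = 0.0537) and without negative control 1 (edgeR adjusted p = 0.0556).

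Ctnna1 (ENSMUSG00000037815, chr18:35118902-35254776, forward strand), the actin-binding alpha-catenin, had 382, 347, 372 and 358 CPM in GapmeR samples 1 to 4 and 384 and 400.5 CPM in the controls. All GapmeR values lay below both controls, but GapmeR 1 was close to negative control 1. Its log2 fold change of -0.11 did not pass (SE 0.07, edgeR adjusted p = 0.255), and the 95% interval was -0.26 to 0.05. With library size only its sign turned, to 0.04.

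Vcl (ENSMUSG00000021823, chr14:20929383-21033676, forward strand), which reinforces the alpha-catenin link to actin, had 147, 141, 140.1 and 142 CPM after knockdown and 173 and 168 CPM in the controls. The GapmeR samples spanned a narrow range below both controls. The log2 fold change was -0.26 (SE 0.07, edgeR adjusted p = 0.00499), the smallest of the 5 falls. The call was lost without either control, with the replicate number as a block, with GapmeR 1 and 2 alone and with library size only (edgeR adjusted p = 0.0531 to 0.178). In the GRCm39 annotation, 24.6% of the exon bases of Vcl lie under Ap3m1 on the opposite strand, which had a mean of 1275 counts, so some reads could belong to either gene if strand was not used in counting.

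Ctnnd1 (ENSMUSG00000034101, chr2:84587096-84658977, reverse strand), which holds cadherins at the membrane, had 81.4, 91.3, 78.7 and 70.5 CPM in GapmeR samples 1 to 4 and 108 and 128 CPM in the controls. The groups did not overlap, and the 2 controls lay further apart, relative to their mean of 118 ± 14.0 CPM (SD, n = 2), than for the other members. The log2 fold change was -0.55 (SE 0.10, edgeR adjusted p = 0.000309), and it was -0.40 without negative control 2 and -0.65 without negative control 1. The gene Gm28635 shares 37.6% of the exon bases of Ctnnd1 on the same strand and had 0 counts in every sample. Whether reads matching both genes were left out of the Ctnnd1 counts was not tested.

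**Figure D2:**
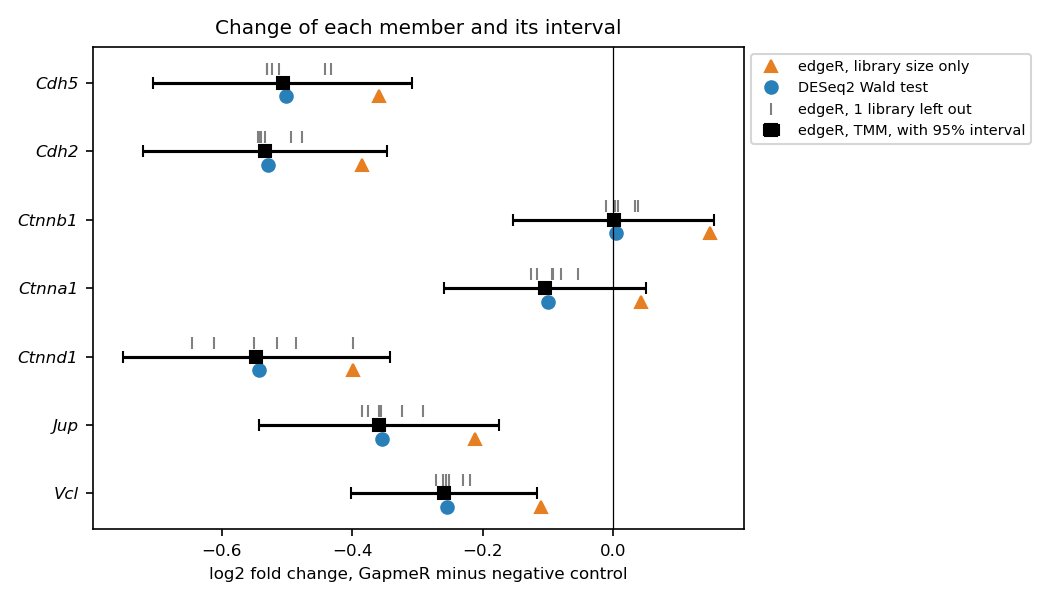
Log2 fold change of each member, GapmeR minus negative control, from edgeR with its 95% interval (squares), from edgeR with library size only (triangles), from DESeq2 (circles) and with each library left out in turn (ticks). The intervals of Ctnnb1 and Ctnna1 span 0, and those of the other 5 members end below it.

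Ratios between members in one library do not depend on how libraries are scaled, and 6 ratios were tested by an exact 2-sided permutation test whose smallest p is 0.0667, or 0.1 after Benjamini-Hochberg adjustment over the 6. No ratio could pass a threshold of 0.05 in this design. There were 0.419, 0.505, 0.393 and 0.415 Ctnnb1 counts per Cdh5 count after knockdown and 0.296 and 0.309 in negative controls 1 and 2. Every GapmeR ratio lay above both controls, by 1.43-fold on average, and GapmeR 2 was the highest (exact permutation p = 0.0667, adjusted p = 0.1). The ratio of Ctnna1 to Cdh5 was 1.33-fold higher after knockdown, also without overlap and with the same p. The ratio of Jup to Ctnnb1 was 0.0588, 0.0522, 0.0684 and 0.0623 after knockdown and 0.0776 and 0.0772 in the controls, so that all GapmeR samples lay below (exact permutation p = 0.0667, adjusted p = 0.1).

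The ratio of Vcl to Ctnna1 was 0.391 ± 0.0132 (SD, n = 4) after knockdown and 0.435 ± 0.0223 (SD, n = 2) in the controls, and the groups did not overlap. Ctnnd1 to Cdh5 was 0.0472 ± 0.0102 (SD, n = 4) and 0.0479 ± 0.00786 (SD, n = 2), with overlap (exact permutation p = 1.0). The ratios of Cdh2 and Ctnnd1 to Cdh5 overlapped between the groups, while those of Ctnnb1 and Ctnna1 to Cdh5 were higher in every knockdown sample. All of these ratios divide by Cdh5, so they are not separate observations. How often ratios of other genes do not overlap was not computed. As a share of Ctnnb1 and Jup together, per kilobase, Jup was 6.24% ± 0.658 (SD, n = 4) after knockdown and 7.86% ± 0.0258 (SD, n = 2) in the controls.

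**Figure D3:**
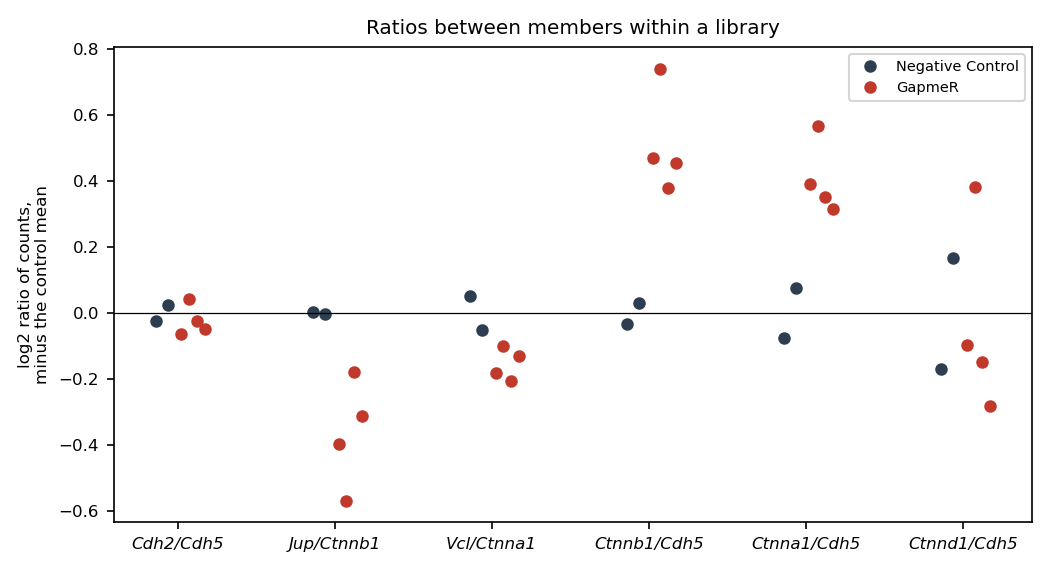
Log2 ratio of raw counts of 2 members within each library, minus the mean of the 2 negative controls, for 6 ratios. The GapmeR points of Ctnnb1/Cdh5 and Ctnna1/Cdh5 lie above both controls, those of Jup/Ctnnb1 and Vcl/Ctnna1 below, and those of Cdh2/Cdh5 and Ctnnd1/Cdh5 on both sides.

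Levels between genes were compared as CPM per kilobase of the Ensembl canonical transcript, with lengths from GENCODE vM39. In the controls Cdh5 came first, at 612 ± 27.9 CPM per kilobase (SD, n = 2), followed by Ctnnb1 at 204 ± 2.93, Ctnna1 at 105 ± 3.10 and Vcl at 31.1 ± 0.678. Jup, at 17.4 ± 0.312, Ctnnd1, at 11.4 ± 1.36, and Cdh2, at 5.87 ± 0.124 CPM per kilobase (SD, n = 2), were the lowest. Within either group, no sample of one gene overlapped those of its neighbour in this order. Knockdown left the order as it was, with Cdh5 at 431 ± 43.5 and Cdh2 at 4.06 ± 0.304 CPM per kilobase (SD, n = 4). With the length of all exons joined in place of the canonical transcript, Jup and Ctnnd1 changed places, and the overlap of Ctnnd1 with Gm28635 touches its level as well.

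Among 8870 genes with a mean of at least 10 CPM, the profile of Cdh5 over the 6 samples was nearest to those of Tnfrsf1a, a TNF receptor, Mapk3, which encodes ERK1, and Oas1a, an interferon-induced synthetase. Their root mean square differences from Cdh5, on centred log2 CPM, were 0.030, 0.031 and 0.032. The nearest to Cdh2 were Ctsb, a lysosomal protease, at 0.019, Idnk, at 0.027, and Ptpra, a receptor tyrosine phosphatase, at 0.028. With 6 samples in 2 groups, such nearness depends largely on the shift between the groups. The log2 fold changes of Tnfrsf1a, Mapk3 and Oas1a were -0.48, -0.51 and -0.52. Shared regulation cannot be read from nearness and was not tested.

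The other genes of the junction were held in 7 lists, 6 of them described here. In the 7 lists 101 genes were tested, 32 of them lower and 19 higher after knockdown. Over all genes tested, 20.0% were lower and 25.4% higher, or 11.7% and 33.5% with library size only. These shares stand beside the counts of each list below. The median log2 fold change over the 101 was -0.14, beside 0.03 over all genes tested. With library size only the counts were 16 lower and 29 higher, and without negative control 1 they were 20 lower and 11 higher. Without negative control 2, 21 were lower.

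Among 14 other cadherins tested, 2 fell, 1 rose and 11 did not pass. Cdh13, or T-cadherin, which lacks a cytoplasmic tail and binds adiponectin, fell to 42.2 ± 2.62 CPM (SD, n = 4) from 62.3 ± 4.95 CPM in the controls (SD, n = 2), at -0.56 on the log2 scale (SE 0.08, edgeR adjusted p = 2.66e-05). Cdh24, a classical cadherin, was counted 326, 369, 271 and 355 times after knockdown and 19 and 29 times in the controls. Its log2 fold change was 3.58 (SE 0.19, edgeR adjusted p = 3.55e-10), and its level after knockdown was 9.71 ± 0.939 CPM (SD, n = 4). The epithelial cadherin Cdh1 and the placental cadherin Cdh3 had at most 2 counts in any sample, below what this depth can compare. Of the list, 1 gene fell without GapmeR 1, GapmeR 2 or negative control 2, and 4 fell without GapmeR 3. Without GapmeR 2, GapmeR 3 or negative control 2, 2 rose.

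Of 10 genes tested in the list of catenin relatives, 7 rose and 1 fell, with a median log2 fold change of 0.42. Fewer rose without negative control 1. The 7 include Ctnnbip1, which binds beta-catenin and is not a relative of it, and Pkp1 and Pkp3, with at most 9 counts in either control. Without GapmeR 3, 2 fell. Ctnnal1, an alpha-catenin relative, had a log2 fold change of 1.07 (SE 0.17). Arvcf, a p120-catenin relative that binds the same stretch of cadherin tail, had one of 0.93 (SE 0.21), from 1.54 to 2.97 CPM. Without negative control 1 its adjusted p was 0.0502 from edgeR. Ctnnbl1, a splicing-associated armadillo protein, had one of 0.54 (SE 0.07). Ctnnd2, the neural delta-catenin, fell by 0.74 on the log2 scale (SE 0.27, edgeR adjusted p = 0.0401). Its call was lost under 7 alternatives, GapmeR samples 1, 2 or 4 or either control left out among them (edgeR adjusted p = 0.0678 to 0.218). Arvcf and Ctnnd2 were each far below Ctnnd1, at a mean of at most 3.20 CPM in either group.

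Jup also belongs to desmosomes. Of 11 genes in the desmosome list only desmoplakin (Dsp) had enough counts to be tested, and it did not pass. That list leaves out the plakophilins, also desmosome proteins, which were held among the catenin relatives. Pkp2, at 7.89 CPM after knockdown and 9.03 CPM in the controls, did not pass. Pkp3 rose by 1.90 on the log2 scale (edgeR adjusted p = 0.000691) and Pkp1 by 2.87 (edgeR adjusted p = 0.0115), both from few counts. Each desmoglein and desmocollin of the list had at most 1 count in any sample.

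Of 24 actin linkers and adaptors, 7 fell and 4 rose. Afadin (Afdn), which joins nectins to actin, fell to 183 ± 2.89 CPM (SD, n = 4) from 254 ± 6.43 CPM in the controls (SD, n = 2), at a log2 fold change of -0.47 (SE 0.07). Testin (Tes), a LIM protein of actin-rich adhesions, fell by 0.48 on the log2 scale (SE 0.08). Ajuba, a LIM protein that binds alpha-catenin, rose by 0.45 (SE 0.07), and Camsap3, which anchors microtubule minus ends, rose from 11 counts in each control to between 38 and 61 counts. The log2 fold change of Camsap3 was 1.92 (SE 0.32), and 9.32% of its exon bases lie under Xab2 on the opposite strand. Xab2 had a mean of 2174 counts, far above those of Camsap3, so without strand in the counting, reads of Xab2 could make up the Camsap3 counts, and this was not tested. Without negative control 1, 3 fell and 2 rose, without negative control 2, 3 fell, and with library size only 2 fell.

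Of 9 nectins and other adhesion proteins, 4 fell and 1 rose. The gene that rose was Nectin4, from few counts, 0 and 4 in negative controls 1 and 2 and between 20 and 39 after knockdown. Nectin2, an immunoglobulin-like adhesion molecule that starts adherens junctions, fell to 285 ± 16.6 CPM (SD, n = 4) from 456 ± 0.828 CPM in the controls (SD, n = 2). Esam, an endothelial junction adhesion molecule, fell to 401 ± 18.0 CPM (SD, n = 4) from 622 ± 12.6 CPM (SD, n = 2). Their log2 fold changes were -0.68 and -0.63 (SE 0.07 each). Pecam1, an adhesion molecule at endothelial contacts, had a log2 fold change of -0.30 (SE 0.08, edgeR adjusted p = 0.00499), and Nectin3 had one of -0.48 (SE 0.15, edgeR adjusted p = 0.0186). Both calls were lost with library size only and without negative control 1, that of Pecam1 also without negative control 2 and that of Nectin3 also with the block and with GapmeR 1 and 2 alone. In those fits the adjusted p from edgeR was 0.0663 to 0.102 for Pecam1 and 0.0778 to 0.280 for Nectin3. Without negative control 1, as with library size only, 2 of the list fell.

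Of 19 kinases, phosphatases, proteases and adaptors that act on cadherin complexes, 9 fell and 2 rose. Adam10, the protease that sheds the outside part of VE-cadherin and N-cadherin, fell to 147 ± 9.68 CPM (SD, n = 4) from 203 ± 10.2 CPM in the controls (SD, n = 2). Cbll1, also called Hakai, a ubiquitin ligase of E-cadherin, had a log2 fold change of -0.53 (SE 0.09), and Numb, an endocytic adaptor, had one of -0.64 (SE 0.07). Of the exon bases of Numb, 27.4% lie under Papln on the opposite strand, which had a mean of 14.7 counts. Without negative control 1, 5 of the list fell, without negative control 2, 1 rose, and with library size only 4 fell and 6 rose.

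**Figure D4:**
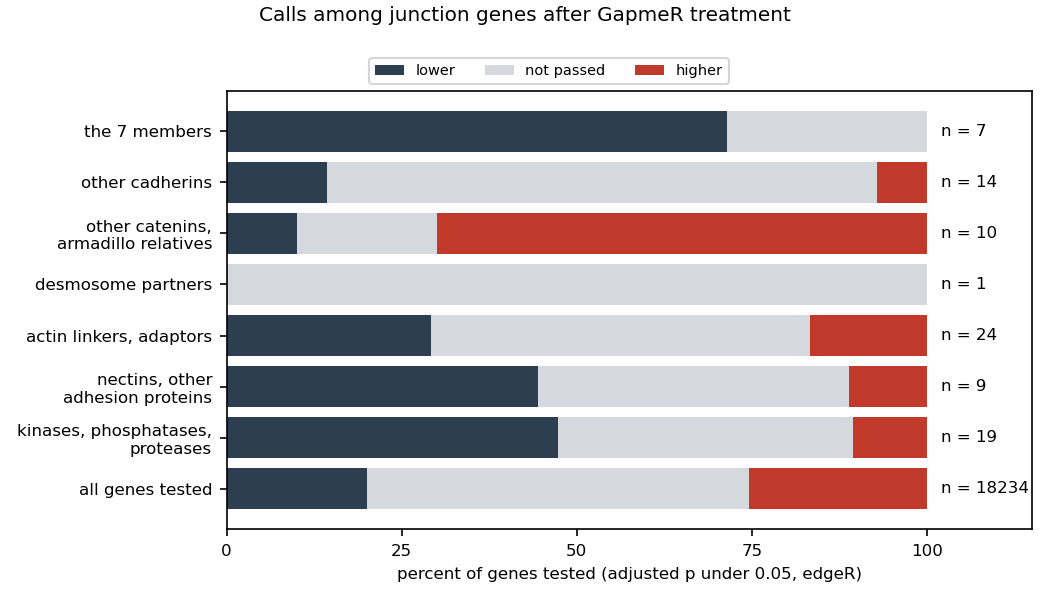
Percent of the genes tested in each of 6 lists, the members and all genes that were lower, not passed or higher after knockdown (adjusted p under 0.05, edgeR), with the number tested at the right. The bar of the members holds 5 lower and 0 higher. That of the list of catenin relatives holds 1 lower and 7 higher, and that of all genes 20.0% lower and 25.4% higher.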

How the data were processed

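The authors deposited raw counts of reads (whole numbers) for each Ensembl gene, made from ribosomal-RNA-depleted paired reads with bcbio-nextgen and STAR on mm10. The submitters' processing notes name Trimmomatic 0.36, STAR 2.5.2b and Subread 1.5.2. Whether counting used strand, and which Ensembl release it used, is not given in the sources used here. The design text gives 4 samples in each group, and 4 GapmeR and 2 control samples were analysed here. A further per-sample column (1), headed like the controls, matched no labelled sample and was not used, so calls rest on n = 2 controls. Genes counted 5 times or more in 2 or more samples were fitted with edgeR 4.0.16 (R 4.3.3, TMM, robust quasi-likelihood, Benjamini-Hochberg over 18234 genes), and all 7 members passed the filter. TMM factors were 1.02 to 1.05 in GapmeR samples and 0.931 to 0.936 in controls, and the common biological coefficient of variation was 8.42%. CPM are TMM-scaled, except the limits of 3 counts, which use raw totals and cover counting error only. SDs are between samples. Replicates differed beyond sampling noise (chi-square per degree of freedom at least 5.87), and the pairs with GapmeR 2 differed most (20.5 to 28.0). A symbol on 2 identifiers was read from the one GENCODE names so. Standard errors are the log2 fold change over the square root of F.

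The members and lists were chosen with earlier results of these data known. The results of 1 list and of 1 further gene are not reported here. Named are the members, Gm39822, up to 4 genes per list with the largest change among calls with a mean of at least 1 CPM, and the 3 genes nearest to Cdh5 and to Cdh2 (log2 of CPM + 0.5). Dsp, Cdh1, Cdh3, Epcam and overlapping genes were named for their counts or position. The plakophilins, Ctnnbip1, Nectin4, Cd68 and Myh11 were named for their part in the counts or sums of their lists. Alternatives were DESeq2 1.42.0, limma-voom (limma 3.58.1), other scalings and filters, the replicate block and each sample left out. GapmeR 1 and 2 alone was added after seeing the data. Functions were tested on simulated data. Ratios were computed in Python 3.11.15 with pandas 2.3.3. Coordinates are mm10 from RefSeq, and lengths and overlaps come from GENCODE vM39 on GRCm39.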

Additional observations from a re-analysis of the deposited data

Results flagged for a closer look

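In the 4 GapmeR samples, 1 library stood far from the other 3 in 3 of 40 results checked, and chance gives about 1 in 20. GapmeR 2 had 1472 CPM of Cdh5, where the other GapmeR samples had 1802 to 1830 CPM. GapmeR 2 also had the lowest summed level of the 14 endothelial markers, 8788 CPM, where the others had 9751 to 9870 CPM. Without GapmeR 2 the log2 fold change of Cdh5 was -0.43 (adjusted p = 2.2e-05 from edgeR). Arhgef11, a guanine nucleotide exchange factor, had 9.56 CPM in GapmeR 1 and 8.93 to 8.99 CPM in the others.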

How the results depend on the processing

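Cdh5, Cdh2 and Ctnnd1 kept their direction and their call under all 14 alternatives. With library size only, which raised the median of all genes by 0.15 on the log2 scale, Jup was at -0.21 and Vcl at -0.11, neither called, Ctnna1 turned to 0.042, 3 members were lower, 2135 genes in all were lower, and the junction lists had 29 higher and 16 lower. With each sample left out in turn, 3 to 5 members were lower, Jup ranged from -0.39 to -0.29 (-0.32 and not called without negative control 1), Vcl from -0.27 to -0.22 (not called at -0.22 without negative control 1 and -0.26 without negative control 2) and Ctnnb1 from -0.012 to 0.037, the lower genes in all from 1930 (without negative control 2; 2262 without negative control 1) to 3949, and the list counts from 11 to 21 higher and from 20 to 33 lower. Ctnnb1 was at -0.00026 with limma-voom and -0.0043 with no filter. Of the log2 ratios, Cdh2/Cdh5 ranged from -0.048 to 0.0018, Vcl/Ctnna1 from -0.21 to -0.10 and Ctnnd1/Cdh5 from -0.20 to 0.13 with a sample left out. The replicate block rests on the 4 samples numbered 1 or 2. It gave Vcl -0.22 (adjusted p = 0.0531 from edgeR) and Ctnnd1/Cdh5 0.14, and changed no other member call. Same-numbered samples shared little (correlations of deviations -0.092 and 0.24 across genes). With GapmeR 1 and 2 alone, chosen after seeing the data, Vcl was at -0.22 and 4 members were lower. With 1 control left, the lone sample is assumed to vary like the others. With no filter Jup and the other 4 lower members stayed called. The cause of these moves was not tested. Genes with few counts, such as Cdh1, are limited by depth.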

Other observations

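Among the 14 endothelial markers, 7 fell, 2 rose and 5 did not pass after knockdown, where 20.0% of all genes tested were lower and 25.4% higher. Their median log2 fold change was -0.22, beside 0.03 over all genes tested. Emcn, which encodes the sialomucin endomucin, fell by 1.33 on the log2 scale (standard error 0.07, adjusted p = 5.39e-10 from edgeR), and Erg, an ETS factor of endothelial identity, rose by 1.12 (standard error 0.07, adjusted p = 4.94e-09 from edgeR). Emcn and Erg were chosen after their values were seen.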
